A study of Mus musculus with 6 samples.

Results

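Basement membrane and integrin genes were examined in epithelium isolated from mouse small intestine on day E18.5 of development. The arrays comprised 3 labelled Gata4Gata6 cKO, a conditional knockout of both Gata4 and Gata6, and 3 labelled control, each an Affymetrix Mouse Gene 1.0 whole-transcript array on total RNA. No source used here gives the Cre driver, the deleted exons, the genotype of the controls or the strain. Nor do the labels state whether replicate arrays stand for different animals, so the p-values reflect the spread between these samples alone, possibly a technical one. Members were chosen by symbol: laminin chains, integrin chains, collagen IV chains, and Nid1, Nid2, Hspg2, Agrn, Dag1, Col17a1, Col18a1 and Col7a1. The rule found 52 of the 19938 genes tested, each read from its probe set with the highest mean. Of these, 51 encode laminins, integrins or the named matrix proteins. The other, Itgb3bp, shares only the letters of the rule and encodes a centromere protein; it changed by −0.08 ± 0.13 (log2, SE; adjusted p = 0.762 by limma) and is not described further.

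The basement membrane is the thin matrix sheet under every epithelium. Laminins are trimers of an alpha, a beta and a gamma chain that polymerise into one network, collagen IV forms another, and nidogens and the proteoglycans perlecan and agrin join them. Integrins are receptors made of an alpha and a beta chain: some bind laminin or collagen under epithelial cells and anchor them through hemidesmosomes or focal adhesions, whereas others are carried by leukocytes and platelets and bind ligands on other cells, clotting proteins or complement.

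Both targeted genes were measured first. Gata4 stood at 11.34, 11.39 and 11.51 on the arrays labelled cKO and at 10.95, 10.93 and 10.96 on the control arrays, as log2 levels. Gata6 stood at 12.72, 12.69 and 12.72 on the arrays labelled cKO, against 12.23, 12.28 and 12.27 on the control arrays. Both transcripts were called higher on the arrays labelled cKO, which goes against the label. The differences were 0.47 ± 0.075 for Gata4 and 0.45 ± 0.065 for Gata6 (adjusted p of 0.0101 and 0.0067 by limma). A probe set that sums probes along a gene can count exons outside a deletion, but the cause of these rises was not tested. Every direction below therefore rests on the labels. The label of an epithelial preparation was checked against its defining markers. All 10 epithelial markers, among them Epcam, Cdh1 and Vil1, were at 10.26 or higher on every array. Their mean level was 12.13 to 12.29 on the arrays labelled cKO and 12.05 to 12.06 on the control arrays. Of these markers 3 were called higher on the arrays labelled cKO, Epcam (0.32), Krt8 (0.32) and Krt19 (0.61), and 0 lower. Marker means of other cell types differed between the groups or stood out on single arrays. The mean level of 8 smooth muscle markers was 8.69, 8.29 and 7.77 on the arrays labelled cKO, above the 7.56 to 7.60 of the control arrays. That of 10 mesenchyme markers was 8.98, 8.90 and 8.23 against 8.30, 7.89 and 8.11, so these means overlapped. Of the smooth muscle markers 1 was called higher and 0 lower, and of the mesenchyme markers 0 were called. The called marker was Actg2 (1.85), and Acta2 (1.73), Dcn (1.85) and Vim (1.32) rose without a call. Median differences were 0.57 for the smooth muscle list and 0.49 for the mesenchyme list. In these lists only Synpo2 and Pdgfra went the other way, at −0.49 and −0.55, without a call. The 10 leukocyte markers averaged 9.48 on cKO 2, 7.41 to 7.68 on the other arrays labelled cKO and 7.60 to 8.10 on the controls. The 9 hepatocyte markers averaged 12.64 on cKO 2 and 7.64 to 7.68 on the other arrays labelled cKO. On control 1, control 2 and control 3 the hepatocyte markers averaged 8.99, 7.14 and 10.63, so control 3 was the highest control. The 8 erythroid markers measured averaged 10.43 on cKO 2, with 6.99 on cKO 1 and 7.10 on cKO 3 and a range of 7.14 to 8.47 on the control arrays. Enteric neural and mesothelial markers averaged 7.84 to 8.12 and 7.98 to 8.20 on the arrays labelled cKO, against 8.30 to 8.46 and 8.10 to 8.21 on the control arrays. These means hold calls in both directions: of the neural markers Ret was lower (−1.40), and of the mesothelial ones Msln and Lrrn4 were higher (0.93 and 0.77) and Upk3b was lower (−1.86). No marker was at 0 on any array. In RNA of a bulk preparation, fewer cells of a type and less RNA per cell cannot be told apart.

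Among the 52 members, 11 were higher and 1 was lower on the arrays labelled cKO at an adjusted p under 0.05 (limma with Benjamini-Hochberg adjustment over all 19938 genes, used for every adjusted p here). Over all genes 5.52% were called higher and 7.42% lower, so the members' share of higher calls, 21.2%, lay above that background and their share of lower calls, 1.92%, below it. A called rise of 2-fold or more was reached by 7 members, against 1.78% of all genes, and a called fall of that size by 0, against 1.84%. The median log2 difference of the members was 0.10, against −0.01 over all genes. The groups did not overlap for 18 members (34.6%, against 32.6% of all genes), a share near the background. Every array labelled cKO lay above every control for 13 members (25%, against 14.3% of all genes). Every one lay below for 5 (9.62%, against 18.3%). Those called higher were 6 laminin chains, the proteoglycan agrin and 4 integrin alpha chains, and the gene called lower was another integrin alpha chain. No collagen IV chain, no anchoring collagen and no integrin beta chain was called. With control 3 and cKO 2 left out together, 10 members were higher and 0 lower. With limma 14 and 2 were called when the leukocyte marker mean was a covariate, and 5 and 0 when the mesenchyme marker mean was. Over all genes the main fit called 1101 higher and 1479 lower. Without control 3 and cKO 2 these counts were 708 and 878. They were 1204 and 1559 with the leukocyte covariate and 287 and 363 with the mesenchyme covariate. The count of higher members was 7 without control 1 and 6 without control 2, with 747 and 629 higher over all genes. The count of lower members was 0 whichever array was left out, except cKO 2.

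**Figure D1:**
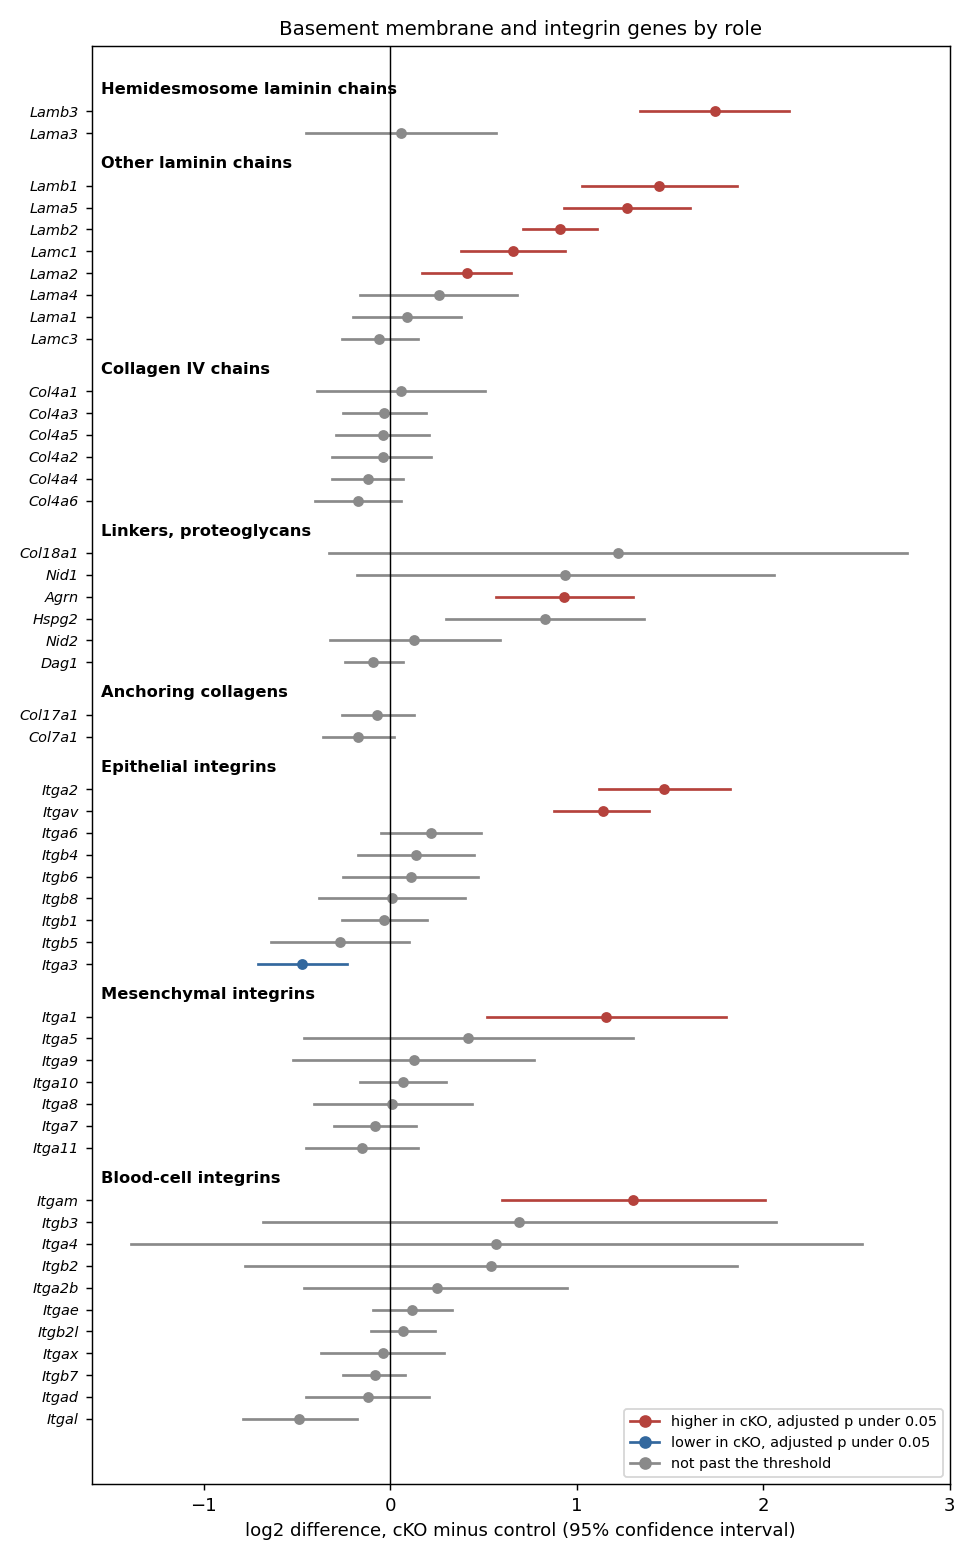
Log2 difference, cKO minus control, of the 51 members with a matrix or integrin role, with its 95% confidence interval from limma (n = 3 arrays per group), grouped by role on the vertical axis. Red and blue mark genes past an adjusted p of 0.05; 6 of the 10 laminin chains are red, while the 6 collagen IV chains lie between −0.17 and 0.06.

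Laminin chains gave the largest group of changes. Of 10 measured, 6 were higher on the arrays labelled cKO and 0 lower, beside 5.52% and 7.42% of all genes. Their median log2 difference was 0.53. They included Lamb3, a beta chain of the epithelial laminin that links hemidesmosomes to the matrix. Lamb3 stood at 9.39, 8.77 and 8.92 on the arrays labelled cKO, against 7.20, 7.36 and 7.30 on the control arrays. Every cKO value was more than 1 log2 unit above every control value, and the rise was 1.74 ± 0.16 (3.34-fold, adjusted p = 0.00142). Its partner chain Lama3, the alpha chain of the same trimer, was not called. Lama3 stood at 9.55, 9.22 and 8.96 on the arrays labelled cKO and at 9.22, 8.83 and 9.50 on the control arrays, so the groups overlapped, and its difference was 0.06 with a 95% interval of −0.45 to 0.57 (adjusted p = 0.894).

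The 4 chains that make up the laminins found under most epithelia all rose. Lama5, the alpha chain of the widespread epithelial laminins, stood at 8.68, 8.96 and 9.16 on the arrays labelled cKO, against 7.64, 7.54 and 7.81 on the control arrays. It rose by 1.27 ± 0.14 (2.41-fold, adjusted p = 0.00261). Lamb1, a beta chain that pairs with it, was at 8.77, 9.20 and 9.24 on the arrays labelled cKO and at 7.64, 7.38 and 7.86 on the control arrays, a rise of 1.44 ± 0.17 (2.72-fold, adjusted p = 0.00353). On all 3 arrays labelled cKO both genes stood well above the highest control. Lamb2, the alternative beta chain, was at 8.54, 8.55 and 8.62 on the arrays labelled cKO, against 7.57, 7.62 and 7.78 on the control arrays. Its rise was smaller, 0.91 ± 0.083 (1.88-fold), but the arrays of a group lay close together and its adjusted p, 0.00123, was the smallest of all members. Lamc1, the gamma chain shared by most laminins, was at 9.32, 9.73 and 9.50 on the arrays labelled cKO and at 8.87, 8.79 and 8.91 on the control arrays. It rose by 0.66 ± 0.12 (1.58-fold, adjusted p = 0.0142), a call lost without control 1, control 2 or cKO 3 (adjusted p of 0.0516, 0.0622 and 0.0501).

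Of the laminin chains more typical of other tissues or stages, 1 passed. Lama2, the alpha chain of muscle laminin, was at 7.33, 7.59 and 7.28 on the arrays labelled cKO, against 6.98, 7.03 and 6.97 on the control arrays. The groups did not overlap and the rise was 0.41 ± 0.10 (1.33-fold, adjusted p = 0.0451), but it no longer passed whichever array was left out (adjusted p of 0.0657 to 0.137). Lama4, the alpha chain of endothelial and mesenchymal basement membranes, differed by 0.26 (95% interval −0.16 to 0.68). Lama1, the alpha chain of early embryonic basement membranes, differed by 0.09 (−0.20 to 0.38), and the gamma chain Lamc3 by −0.06 (−0.26 to 0.15). None of these 3 chains passed. With the smooth muscle marker mean as a covariate, added after the data were seen, Lamb3, Lama5, Lamb1 and Lamb2 kept their calls and Lamc1 and Lama2 lost theirs (adjusted p of 0.128 and 0.385). With the mesenchyme marker mean Lamb1 was lost as well, at a rise of 1.56 (adjusted p = 0.0542). Over all genes the smooth muscle and mesenchyme fits called 634 and 650, against 2580 without a covariate. The smooth muscle means of the groups did not overlap, so that fit cannot separate muscle RNA from group. A call lost in either fit can also come from lost precision. The part of muscle and mesenchymal RNA in the laminin rises was therefore not tested.

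**Figure D2:**
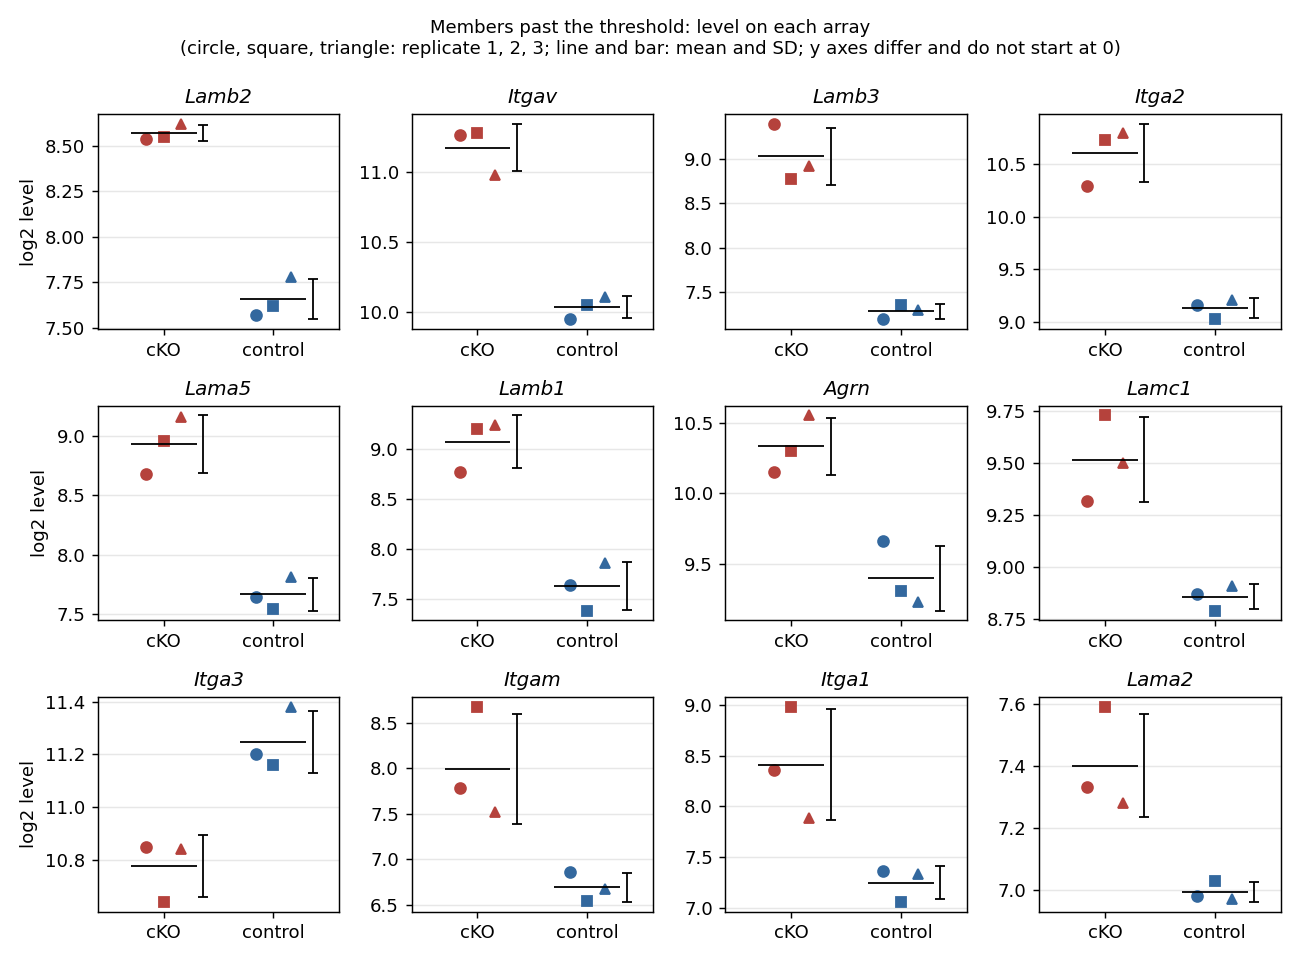
Log2 level on each of the 3 arrays labelled cKO and 3 control arrays for the 12 members past the threshold, in order of adjusted p, with the group mean as a line and the SD as a bar. The groups do not overlap in any of the 12, and only Itga3 is lower on the arrays labelled cKO. The array cKO 2 lies apart in Itgam and is the highest in Itga1.

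The promoters of the members that rose together were read from RefSeq (GRCm38.p6) in windows of 250 bases before to 50 after the start, which 37 of the 52 members had. The motif searched was the core bound by GATA factors, spelled AGATAA or, with the other letter allowed at each end, with T in place of the leading A and with G in place of the closing A, on either strand. TGANTCA, the letters of AP-1 sites, and GGGCGG, those of a GC box, were added after the first search, and matches of different motifs can share bases. The members called higher had 12 windows, from 10 genes. Of these windows 0 held the GATA letters, against 29.8% of all 32851 windows. Over all members it was 5 of 43. These windows are rich in G and C, with a median of 59.3% in the members called higher and 52.7% in all, and windows with the GATA letters have a median of 47.0%. A GC box was held by 8 of the 12 windows (35.7% of all) and TGANTCA by 0 (7.81% of all). The GC box was also held by 14 of the 29 windows of members not called, and by 24 of the 43 over all members. A match is a description and not a site, and the absence of these letters from a window says nothing of the factor. Both windows below belong to the laminin genes with the largest rise of their kind, a beta and an alpha chain, and capitals mark GGGCGG or its reverse complement. The Lamb3 window shown, at chr1:193301744-193302043 on the plus strand, holds none of the 3 motifs. Another Lamb3 window, at chr1:193301993-193302292, is not shown and holds none of them either. The Lama5 window, at chr2:180225810-180226109 on the minus strand, holds 4 GC boxes.
Lamb3: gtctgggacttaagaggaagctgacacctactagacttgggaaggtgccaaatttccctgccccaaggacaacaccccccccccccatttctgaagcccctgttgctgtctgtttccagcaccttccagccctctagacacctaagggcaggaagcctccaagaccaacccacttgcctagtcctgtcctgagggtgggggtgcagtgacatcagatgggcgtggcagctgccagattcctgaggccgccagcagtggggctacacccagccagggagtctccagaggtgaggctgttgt
Lama5: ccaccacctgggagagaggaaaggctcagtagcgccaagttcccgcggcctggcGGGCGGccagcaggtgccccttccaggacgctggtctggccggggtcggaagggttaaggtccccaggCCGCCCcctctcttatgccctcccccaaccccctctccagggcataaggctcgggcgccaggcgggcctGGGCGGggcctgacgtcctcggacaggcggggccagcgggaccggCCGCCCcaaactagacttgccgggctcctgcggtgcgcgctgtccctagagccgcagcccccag

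Of the 6 chains of collagen IV, the other network of the basement membrane, 0 passed the test in limma, beside 12.9% of all genes. No unadjusted p was under 0.05, the differences ran from −0.17 to 0.06 with a median of −0.04, and the smallest adjusted p was 0.32. Col4a1, one of the chains of the collagen IV found in nearly all basement membranes, stood at 8.66, 8.70 and 8.12 on the arrays labelled cKO, against 8.28, 8.35 and 8.68 on the control arrays. Col4a2, its partner in the same trimer and its direct neighbour in the genome, stood at 8.01, 8.11 and 7.81 on the arrays labelled cKO and at 7.97, 7.93 and 8.16 on the control arrays. The groups overlapped in both, and the 95% intervals of the differences were −0.39 to 0.51 and −0.31 to 0.22. These intervals leave out rises of the size seen for Lamb3, Lama5 or Lamb1. Differences of Col4a3, Col4a4, Col4a5 and Col4a6, the chains of more specialised basement membranes, were −0.03, −0.12, −0.04 and −0.17.

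Of 6 linkers and proteoglycans 1 was higher and 0 were lower, beside 5.52% and 7.42% of all genes. Their median difference was 0.88. Agrn, agrin, a heparan sulfate proteoglycan that binds laminin, stood at 10.15, 10.30 and 10.55 on the arrays labelled cKO, against 9.66, 9.31 and 9.23 on the control arrays. It rose by 0.93 ± 0.15 (1.91-fold, adjusted p = 0.0108), and its call was lost without control 2 (0.0506) or without control 3 and cKO 2 (0.0649). It was also lost with the mesenchyme or the smooth muscle marker mean as a covariate, at differences of 1.07 (0.0949) and 1.23 (0.0526). Hspg2, perlecan, stood at 8.43, 9.29 and 8.64 on the arrays labelled cKO and at 7.93, 7.86 and 8.09 on the control arrays. Its groups did not overlap, but the difference of 0.83 ± 0.22 fell short of the threshold (adjusted p = 0.0592) and passed under 11 of 20 alternatives. For Nid1, nidogen, and Col18a1, the collagen whose end fragment is endostatin, the value of cKO 2 stood apart: 10.36 and 10.61 there, against 8.67 to 9.50 and 8.23 to 8.37 on the other arrays labelled cKO, and 7.94 to 9.04 and 7.55 to 8.37 on the control arrays. Their differences of 0.94 ± 0.47 and 1.22 ± 0.64 did not pass (adjusted p of 0.266 and 0.296), though Col18a1 passed under 3 of 20 alternatives. Of the 10 endothelial markers 8 were highest on cKO 2, and the means of the list were 7.53, 8.53 and 7.24 on the arrays labelled cKO and 7.60, 7.61 and 8.12 on the control arrays; their part in these values was not tested. Nid2, the other nidogen, differed by 0.13 ± 0.19, and Dag1, dystroglycan, a laminin receptor outside the integrin family, by −0.09 ± 0.065.

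The anchoring collagens did not pass either. Col17a1, a transmembrane collagen of hemidesmosomes, differed by −0.07 (95% interval −0.26 to 0.13) and Col7a1, the collagen of anchoring fibrils, by −0.17 (−0.36 to 0.02). Col17a1 is shown because its promoter is among the 5 member windows with the GATA letters, here AGATAA in capitals, which start 36 bases before the gene's start at chr19:47691993-47692292 on the minus strand.
Col17a1: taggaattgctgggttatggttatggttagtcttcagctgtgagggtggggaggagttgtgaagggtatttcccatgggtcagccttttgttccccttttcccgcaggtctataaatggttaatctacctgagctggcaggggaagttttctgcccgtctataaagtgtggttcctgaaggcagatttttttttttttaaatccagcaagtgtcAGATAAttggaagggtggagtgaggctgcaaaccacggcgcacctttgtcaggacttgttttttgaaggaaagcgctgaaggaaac

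Integrins of epithelial cells changed in their alpha chains. Of 9 such genes 2 were higher, 1 was lower and 6 did not pass, with a median difference of 0.11. Over all genes 5.52% were called higher and 7.42% lower. Itga2, the alpha chain of a collagen and laminin receptor, stood at 10.29, 10.73 and 10.79 on the arrays labelled cKO, against 9.16, 9.03 and 9.21 on the control arrays. The rise was 1.47 ± 0.15 (2.77-fold, adjusted p = 0.00166). Itgav, the alpha chain of the receptors for vitronectin, fibronectin and latent TGF-beta, was at 11.26, 11.28 and 10.98 on the arrays labelled cKO and at 9.95, 10.05 and 10.11 on the control arrays. It rose by 1.14 ± 0.11 (2.20-fold, adjusted p = 0.00136). Both genes kept their calls under all 20 alternatives, including each array left out in turn. Itga3, the alpha chain of a receptor for laminin, moved the other way, at 10.85, 10.64 and 10.84 on the arrays labelled cKO, against 11.20, 11.16 and 11.38 on the control arrays. Its difference was −0.47 ± 0.099 (1.39-fold lower, adjusted p = 0.0268), with no overlap of the groups, but it no longer passed whichever array was left out (adjusted p of 0.0514 to 0.0841) or under quantile normalization (0.0601).

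The hemidesmosome integrin and the beta chains showed no call. Itga6, the laminin-binding alpha chain that pairs with Itgb4 in hemidesmosomes, stood at 10.20, 10.20 and 10.33 on the arrays labelled cKO, against 10.17, 10.09 and 9.81 on the control arrays. Its groups did not overlap, yet the difference was small, 0.22 with a 95% interval of −0.05 to 0.49 (adjusted p = 0.277). Itgb4, the hemidesmosome beta chain, stood at 10.92, 10.48 and 10.61 on the arrays labelled cKO and at 10.59, 10.41 and 10.59 on the control arrays, an overlap with a difference of 0.14 (−0.17 to 0.45). Itgb1, the beta chain that pairs with Itga2 and Itga3, stood at 10.88, 10.99 and 10.77 on the arrays labelled cKO, against 11.02, 10.81 and 10.90 on the control arrays. Its difference of −0.03 had an interval of −0.26 to 0.20, which leaves out a change of the size seen for Itga2. Itgav can pair with Itgb1 too, and with Itgb3, which differed by 0.69 (adjusted p = 0.504) and is described with the blood-cell integrins. Its partners Itgb6, Itgb5 and Itgb8 differed by 0.11, −0.27 and 0.01, with adjusted p of 0.702, 0.338 and 0.973.

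Integrin alpha chains of mesenchymal and muscle cells had 1 call among 7, a higher one, beside 5.52% of all genes called higher. Itga1, the alpha chain of a collagen IV receptor and the direct neighbour of Itga2 on mouse chromosome 13 in the RefSeq order, stood at 8.36, 8.98 and 7.89 on the arrays labelled cKO, against 7.36, 7.06 and 7.33 on the control arrays. It rose by 1.16 ± 0.27 (2.23-fold, adjusted p = 0.037), with cKO 2 highest. The call remained only without cKO 2 or without cKO 3 among the arrays left out singly (adjusted p of 0.0874 to 0.126 otherwise), and its difference was 0.58 with the mesenchyme marker mean as a covariate (adjusted p = 0.423). Itga5, the fibronectin receptor chain, differed by 0.42 (95% interval −0.46 to 1.30), with 9.01 on cKO 2 against 7.53 to 7.87 on the other arrays labelled cKO and 7.57 to 7.88 on the control arrays. Itga7, Itga8, Itga9, Itga10 and Itga11 differed by −0.15 to 0.13. The windows of Itga2, at chr13:114932051-114932350, and Itga1, at chr13:115101915-115102214, both on the minus strand, are shown as those of neighbours that both rose. Neither held the GATA letters, and the capitals in the Itga2 window mark a GC box 2 bases after the start.
Itga2: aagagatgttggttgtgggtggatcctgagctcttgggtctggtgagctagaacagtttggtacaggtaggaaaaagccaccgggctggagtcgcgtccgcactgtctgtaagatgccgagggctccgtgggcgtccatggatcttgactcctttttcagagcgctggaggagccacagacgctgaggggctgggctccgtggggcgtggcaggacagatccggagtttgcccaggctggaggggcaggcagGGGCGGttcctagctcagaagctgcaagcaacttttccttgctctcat
Itga1: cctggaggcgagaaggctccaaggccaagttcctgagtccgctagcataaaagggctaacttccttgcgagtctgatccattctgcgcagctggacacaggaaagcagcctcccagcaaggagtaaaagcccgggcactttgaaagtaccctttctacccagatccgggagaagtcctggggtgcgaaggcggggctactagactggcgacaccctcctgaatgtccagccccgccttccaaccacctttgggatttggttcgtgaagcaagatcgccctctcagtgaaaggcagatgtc

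Several blood-cell integrins were high on a single array. Of 11 measured, 1 was higher, 0 were lower and 10 did not pass, with a median difference of 0.12. The shares of all genes called higher and lower were 5.52% and 7.42%. On cKO 2 the level was at least 1 log2 unit above the mean of cKO 1 and cKO 3 for 5 of the 11, for 0 of the 9 epithelial integrins and for 3.52% of all genes. Itga4, the alpha chain of the leukocyte receptor for VCAM, stood at 6.90, 9.82 and 6.77 on the arrays labelled cKO, against 7.48, 6.73 and 7.58 on the control arrays. Itgb2, the beta chain common to the leukocyte integrins, stood at 7.12, 8.95 and 6.71 on the arrays labelled cKO and at 7.11, 7.07 and 6.98 on the control arrays. Itgb3, a beta chain of platelets and osteoclasts, stood at 7.34, 9.32 and 7.05 on the arrays labelled cKO, against 7.30, 7.02 and 7.31 on the control arrays. In all 3 genes cKO 2 alone was high, while cKO 1 and cKO 3 lay within or near the control range. Itga2b, the platelet alpha chain, had the same form, with 8.36 on cKO 2 against 7.26 to 7.30 on the other arrays labelled cKO and 7.31 to 7.45 on the control arrays. With cKO 2 left out, the differences of Itga4, Itgb2, Itgb3 and Itga2b were −0.43, −0.14, −0.01 and −0.11, none of which passed. Of the 10 leukocyte markers 9 were highest on cKO 2, as were all 4 megakaryocyte markers measured; on that array the megakaryocyte list averaged 9.81, against 7.38 to 7.66 on the other arrays labelled cKO and 7.42 to 7.81 on the control arrays.

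Itgam, the alpha chain of the complement receptor of macrophages and neutrophils, was the blood-cell integrin that passed. It stood at 7.78, 8.68 and 7.52 on the arrays labelled cKO, against 6.86, 6.54 and 6.67 on the control arrays, so that cKO 1 and cKO 3 were also above all controls. The rise was 1.30 ± 0.29 (2.47-fold, adjusted p = 0.034). It passed without cKO 2 and without cKO 3, but not without control 1, control 2, control 3 or cKO 1 (adjusted p of 0.0642 to 0.117). The call was also lost with the mesenchyme marker mean as a covariate, at a difference of 0.78 (0.406), and with the smooth muscle marker mean, at 1.04 (0.37). Another 3 probe sets carry the symbols of both Itgam and Rpl35 and were left out. Itgax, its direct neighbour on mouse chromosome 7, and Itgad, the gene next to Itgax, are alpha chains of related leukocyte receptors and differed by −0.04 (95% interval −0.37 to 0.29) and −0.12 (−0.45 to 0.21). Of the 10 leukocyte markers, 9 were not called and had positive differences of 0.24 to 0.81. Their mean level was 7.66, 9.52 and 7.39 on the arrays labelled cKO, against 7.85, 7.30 and 7.81 on the control arrays, so cKO 1 and cKO 3 lay within the control range. The remaining marker, Csf1r, a macrophage growth factor receptor, was called lower, at 7.84, 9.12 and 7.54 on the arrays labelled cKO against 10.26, 10.30 and 10.60 on the control arrays. With the mean of all 10 as a covariate the difference of Itgam was 1.16 (adjusted p = 0.000733 by limma). That mean includes Csf1r and was 9.48 on cKO 2, against 7.41 to 8.10 on the other arrays. The fit therefore cannot separate leukocyte RNA from group, and the part of leukocyte RNA in the rise of Itgam was not tested.

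Itgal, the alpha chain of a lymphocyte adhesion receptor, was not called and stood at 8.11, 8.24 and 7.87 on the arrays labelled cKO, against 8.44, 8.51 and 8.73 on the control arrays. Its groups did not overlap, and the difference of −0.49 ± 0.13 fell short of the threshold (adjusted p = 0.0548), though it passed under 10 of 20 alternatives. Itgae, the alpha chain of intraepithelial lymphocytes that binds E-cadherin, and Itgb7, its beta chain, differed by 0.12 ± 0.087 and −0.08 ± 0.068 (adjusted p of 0.461 and 0.5). Itgb2l, a relative of Itgb2, differed by 0.07 ± 0.072.

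**Figure D3:**
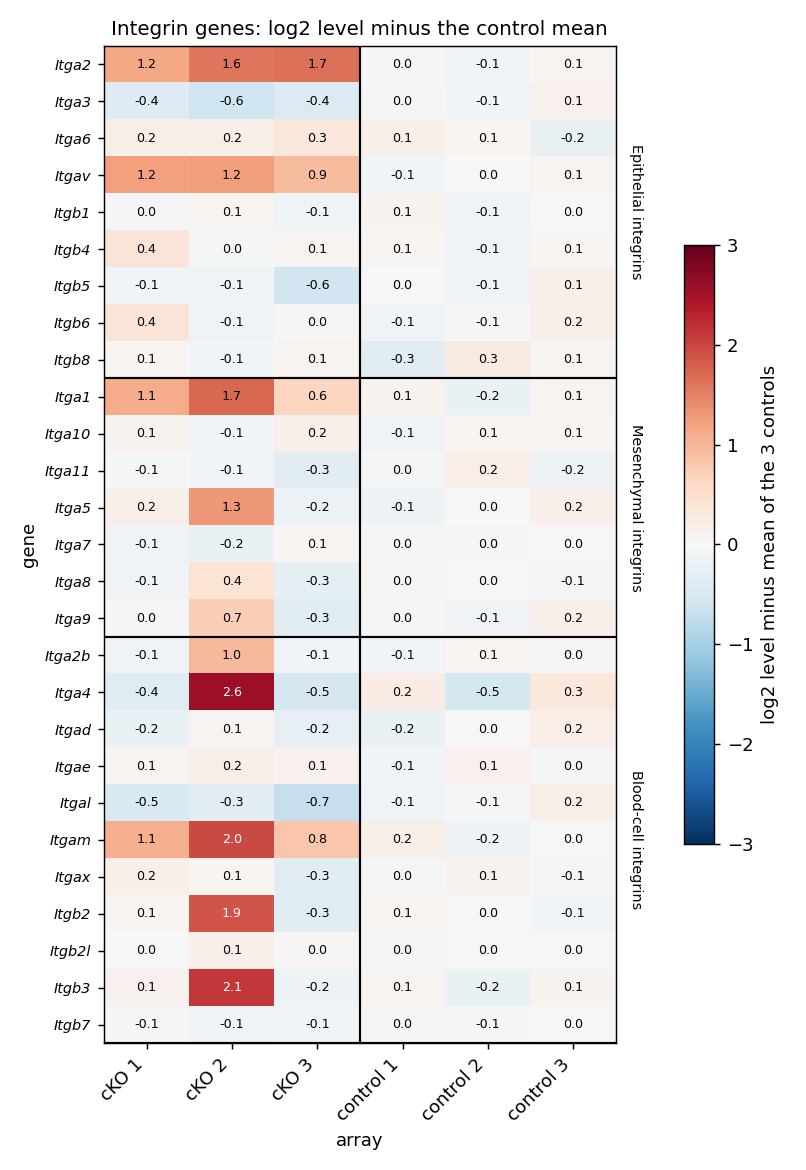
Log2 level of each of 27 integrin genes minus its mean over the 3 control arrays, with the 3 arrays labelled cKO left of the 3 control arrays and genes grouped by the cells they are typical of. Itga2 and Itgav are high on all 3 arrays labelled cKO, whereas Itga4, Itgb2, Itgb3 and Itga2b are high on cKO 2 alone.

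Proteins that couple integrins to actin were counted from a list outside the members. Of 27 measured, 4 were higher and 1 was lower on the arrays labelled cKO, with a median difference of 0.19. Tns2, a tensin of focal adhesions, stood at 9.88, 10.01 and 9.87 on the arrays labelled cKO, against 8.14, 8.06 and 8.35 on the control arrays, a rise of 1.74 ± 0.099 (adjusted p = 0.000283). Tln2, a talin, which activates integrins, rose by 0.72 ± 0.065 (adjusted p = 0.00123), the actin crosslinker gene Actn1 by 0.60 ± 0.083 (0.0057) and the tensin gene Tns3 by 0.61 ± 0.087 (0.00683). Actn1 and Tns3 lost their calls with the mesenchyme marker mean as a covariate (adjusted p of 0.0897 and 0.104) and with the smooth muscle marker mean (0.082 and 0.143), which left 2 higher adaptors in each fit. The gene called lower was Pxn, paxillin, a scaffold of focal adhesions, at −0.50 ± 0.076 (adjusted p = 0.00856), named after its values were seen. The share of genes called higher in this list, 4 of 27, and lower, 1 of 27, is to be read against the 5.52% and 7.42% of all genes.

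Matrix proteins that bind, fold, crosslink or cut the basement membrane were counted in the same way. Of 33 measured, 8 were higher and 3 were lower, with a median difference of 0.28, beside 5.52% and 7.42% of all genes. With the mesenchyme and smooth muscle marker means as covariates the 8 higher genes became 3 and 2. Calls over all genes fell in the same fits, from 2580 to 650 and 634, and the cause of the loss was not tested. Fbln1, fibulin, a calcium-binding protein of basement membranes and elastic fibres, stood at 9.70, 9.47 and 9.85 on the arrays labelled cKO, against 11.36, 11.19 and 11.56 on the control arrays. It fell by 1.70 ± 0.14 on the log2 scale (adjusted p = 0.000844). Sulf2, an enzyme that trims sulfate from heparan sulfate chains, fell by 1.6 ± 0.14 (adjusted p = 0.001). Mmp14, a membrane-bound metalloproteinase that cuts matrix proteins, rose by 1.28 ± 0.10 (0.000844), and Fras1, a protein of the embryonic epithelial basement membrane, rose by 1.30 ± 0.11 (0.001). All 4 kept their calls under each of 20 alternatives. The count of higher matrix genes was 4 without control 2, control 3 or cKO 1 and 5 without control 1.

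Across the 12 called members, 5 kept their calls under every alternative in which they were tested: Lamb2, Itgav, Lamb3, Itga2 and Lama5. Lamb1 lost its call under 1 of 20, and Agrn under 5 and Lamc1 under 6. Itgam lost its call under 7 of 18, Itga1 under 8 of 19, Lama2 under 10 of 18 and Itga3 under 11 of 20. No called member changed sign under any of them.

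**Figure D4:**
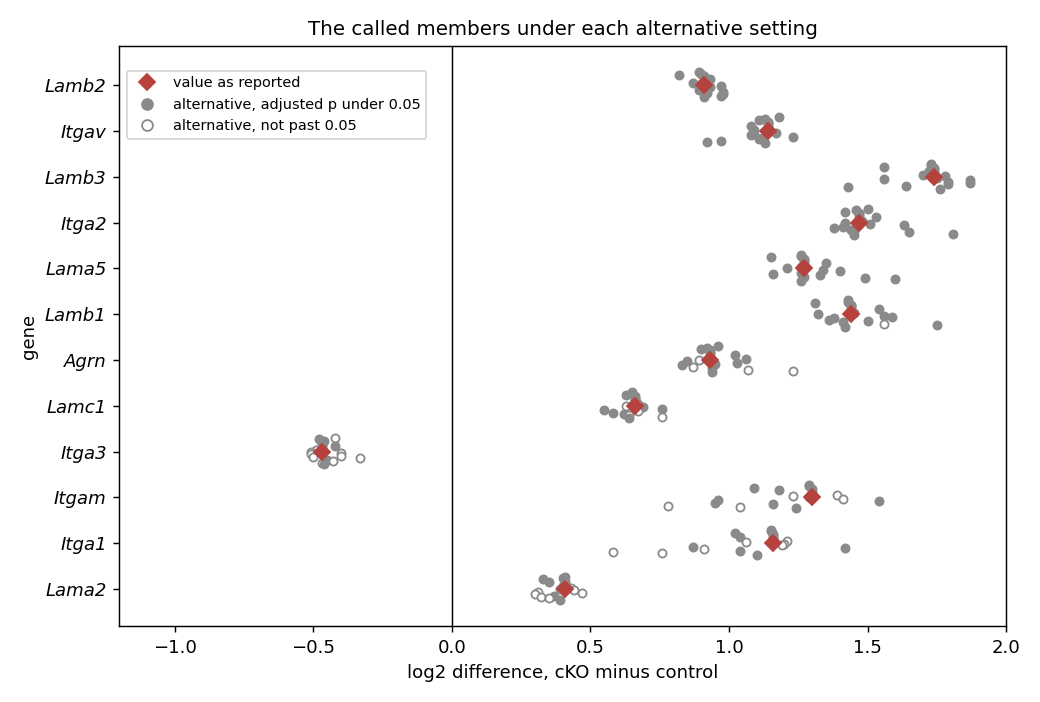
Log2 difference, cKO minus control, of the 12 called members (rows, by adjusted p) as reported (diamond) and under each alternative setting (circles, filled where the adjusted p was under 0.05). Lamb2, Itgav, Lamb3, Itga2 and Lama5 show filled circles only, whereas Itga3 and Lama2 show many open ones, and no gene crosses 0.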

How the data were processed

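The deposited table holds 1 log2 level for each of 35512 probe sets on each of 6 arrays. Per the series text the authors used dChip to make these deposited values. The log base was read from the values, and no source used here gives dChip's version, background correction, normalization or centring. Array medians were 7.73 to 7.84. The number of arrays limits the precision, and no detection calls were used, so a low level can hide a larger change. Probe sets with exactly 1 gene (21789) were used, with 1621 of several genes and 12102 of none left out; the probe set of highest mean was kept per gene. Groups came from the source names. A two-sided limma fit (version 3.58.1, lmFit then eBayes, no covariate, in R 4.3.3) ran over all 19938 genes, with Benjamini-Hochberg adjustment at 0.05. A fold is 2 to the power of the log2 difference. The members and lists were chosen with earlier results of these data known. Named are all called members, a fixed set of laminins, collagens and integrins, and the 4 called genes with the smallest adjusted p of each partner list; other genes were named after their values were seen. The test was checked on simulated data. Alternatives were quantile normalization, median centring, log2(2^value + 32), leaving out dim genes at either of a pair of limits, a trended robust fit, array weights, a replicate block, the mean of all probe sets, each array left out, control 3 and cKO 2 left out together, and marker means as covariates (leukocyte and mesenchyme, and, added after the data were seen, smooth muscle and hepatocyte). No 2 arrays held the same values.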

Additional observations from a re-analysis of the deposited data

How the results depend on the processing

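The 11 higher members became 7 without genes under the median level, 6 with the replicate block, 5 with the mesenchyme covariate, 6 with the smooth muscle covariate and 6 to 11 with 1 array left out. The 1 lower member became 2 with median centring, log2(2^value + 32), either filter on dim genes, the trended robust fit, array weights, or the leukocyte or hepatocyte covariate, and 0 with the block, without control 3 and cKO 2, or with the mesenchyme or smooth muscle covariate (0 to 1 with 1 array left out). Agrn and Itgam also lost their calls with the block (adjusted p of 0.0608 and 0.0837). The 2580 genes called became 1449 with the block, 1586 without control 3 and cKO 2, 650 and 634 with the mesenchyme and smooth muscle covariates, and 1482 to 2281 with 1 array left out. The 6 laminin chains became 3 without genes under the median and 3 with the mesenchyme covariate (4 to 5 with 1 array left out). Of adhesion adaptors 2 were higher with either of these 2 tissue covariates (4 to 4 with 1 array left out). The lower adaptor count was 2 with log2(2^value + 32), either filter, the trended robust fit or array weights, and 0 without control 3 and cKO 2 or with either tissue covariate (1 to 2 with 1 array left out). Higher matrix partners were 3 without genes under the median, 3 with the block, 4 without control 3 and cKO 2, 3 with the mesenchyme and 2 with the smooth muscle covariate (4 to 7 with 1 array left out), and lower ones 2 to 4 with 1 array left out. Deviations of same-numbered arrays had r of −0.02, −0.42 and −0.18 across genes, and those of other pairs −0.3 to 0.36. With 3 arrays per group these values depend on one another and cannot show whether arrays were paired. The labels give only the number as a basis for the block. Fewer genes or arrays enter the filtered and reduced fits, and the cause of the other moves was not tested.

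No called member reversed. Differences that changed sign were those near 0 or of genes high on cKO 2. Col4a1 was −0.03 with array weights, −0.31 with the mesenchyme and −0.36 with the smooth muscle covariate (−0.05 to 0.24 with 1 array left out). Lama3 was −0.37 and −0.39 with the 2 tissue covariates (−0.12 to 0.22), Lama1 −0.20 with each, Itgb4 −0.07 and Itgb6 −0.13 with smooth muscle (Itgb6 −0.03 to 0.22), and Itgb1 0.02 with quantile normalization (−0.09 to 0.03). Itga4 was −0.27, Itgb2 −0.18 and Itga2b −0.10 without control 3 and cKO 2, and Itga4 −0.56, Itgb2 −0.26 and Itgb3 −0.14 with the mesenchyme covariate. With 1 array left out Itga4 ran from −0.43 to 1.10, Itgb2 from −0.14 to 0.98, Itgb3 from −0.01 to 1.12, Itga2b from −0.11 to 0.44 and Col4a2 from −0.11 to 0.04.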
